A study of Mus musculus with 4 samples.

Results

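The matrix crosslinking, proteoglycan and Timp genes are 10 genes whose products crosslink, bind or turn over the collagen matrix: the lysyl oxidases Lox, Loxl1 and Loxl2, the small proteoglycans Lum, Dcn and Bgn, the metalloproteinase inhibitors Timp1, Timp2 and Timp3, and the metalloproteinase Mmp2. They were chosen by symbol, and every probe set that names 1 of these symbols and no other gene was taken. This gave 24 of the 45037 probe sets of the value table, for 9 of the 10 genes, out of 18193 genes named alone on the array. All 24 also passed the filter on low values, as did 38405 of all probe sets. Loxl2 is named only by 2 probe sets that name Gm21451 as well, so no value is given for it. The numbers of probe sets were 6 for Timp2, 4 for Timp3, 3 each for Lox and Bgn, 2 each for Loxl1, Dcn and Mmp2, and 1 each for Lum and Timp1.

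RNA of whole livers was measured in 2 Control mice, labelled wild type, and 2 Cnot3KO mice, with 1 array for each liver. All were on the C57BL/6 background and were taken 4 weeks after birth. In the Cnot3KO mice the floxed Cnot3 gene was deleted by Cre recombinase driven by the Albumin promoter, which is active in hepatocytes and in the fetal cells that give rise to them, and not, as far as is known, in fibroblasts of the liver. According to the methods, control mice of the study either lacked Alb-cre and carried 1 or 2 floxed alleles, or carried Alb-cre with at most 1 floxed allele, and which of these stands behind each Control array is not given in the sources used here, nor is the sex of the mice. The Cnot3 protein belongs to Ccr4-Not, the complex that removes poly(A) tails from mRNAs. On the probe set that represents it, Cnot3 was 5.99 and 6.04 in the Control livers against 5.15 and 5.30 in the Cnot3KO livers (log2 RMA intensity). It was lower by a log2 difference of -0.79 ± 0.16 (SE, n = 2 per group; limma adjusted p = 0.0372), and the call was lost without any single array. Its other probe set differed by -0.40 (limma adjusted p = 0.218), and whether either lies in the deleted part of the gene is not given in the sources used here. The arrays had medians of 3.09 to 3.14 on that scale and correlated across probe sets with r of 0.981 and 0.989 within groups and 0.937 to 0.948 between them.

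Lysyl oxidases are secreted copper enzymes that oxidise lysines of collagen and elastin, after which neighbouring chains join by covalent crosslinks. Lumican, decorin and biglycan are leucine-rich proteoglycans of the matrix: lumican and decorin coat collagen fibrils and set their spacing and width, and decorin and biglycan also bind Tgf-beta. Timps are secreted inhibitors of the metalloproteinases that cut matrix proteins, and Mmp2 is a gelatinase whose precursor Timp2 helps to activate at the cell surface. In liver, stellate cells and portal fibroblasts are the main makers of this matrix, and hepatocytes make little of it.

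Promoters were at hand for 4 of the 10 genes (RefSeq, build GRCm38.p6), and all 4 are shown. Each line holds the 250 bases before the annotated start, 5' to 3' on the strand of the gene, and capitals mark the GC box letters GGGCGG on either strand. Adjoining hits run together in Bgn.
Timp1, chrX:20869916-20870165, plus strand: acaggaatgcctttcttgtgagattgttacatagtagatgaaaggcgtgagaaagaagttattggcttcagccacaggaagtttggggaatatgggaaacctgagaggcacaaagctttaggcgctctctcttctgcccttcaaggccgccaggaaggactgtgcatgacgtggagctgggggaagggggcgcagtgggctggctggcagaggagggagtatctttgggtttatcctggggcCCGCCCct
Timp2, chr11:118355412-118355661, minus strand: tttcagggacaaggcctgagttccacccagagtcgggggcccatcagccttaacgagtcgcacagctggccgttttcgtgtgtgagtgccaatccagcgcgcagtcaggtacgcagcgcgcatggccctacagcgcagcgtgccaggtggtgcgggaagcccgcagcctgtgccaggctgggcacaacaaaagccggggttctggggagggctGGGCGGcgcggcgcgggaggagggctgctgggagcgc
Timp3, chr10:86300162-86300411, plus strand: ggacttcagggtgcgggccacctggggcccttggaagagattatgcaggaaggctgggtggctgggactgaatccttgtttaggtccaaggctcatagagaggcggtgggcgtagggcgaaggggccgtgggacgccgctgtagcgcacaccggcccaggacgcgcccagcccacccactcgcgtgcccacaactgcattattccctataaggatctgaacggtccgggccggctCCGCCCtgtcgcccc
Bgn, chrX:73483351-73483600, plus strand: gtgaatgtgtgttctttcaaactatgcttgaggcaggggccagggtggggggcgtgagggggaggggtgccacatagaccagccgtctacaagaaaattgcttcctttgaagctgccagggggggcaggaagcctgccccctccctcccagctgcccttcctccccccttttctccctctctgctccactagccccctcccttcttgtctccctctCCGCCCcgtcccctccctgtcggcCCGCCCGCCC

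The AP-1 family of factors, Fos and Jun, is known to drive Timp1, so its letters were searched as well, on both strands and with 50 bases after the start included. None of the 4 windows of 300 bases held the letters TGANTCA, where N is any base, which 7.81% of the 32851 promoters in the reference held. Of variants of these letters, only TGAGTAA was searched, so its share over all promoters does not show whether a match is unusual. The Timp1 window held this variant, which 2.68% of promoters held, with its first base at position 27 from the start. Its surroundings are shown with those letters in capitals.
Timp1, chrX:20870186-20870215, plus strand: ggtggaTGAGTAAtgcgtccaggaagcctg
All 4 windows held at least 1 GC box, as did 35.7% of all promoters, and none held the TATA box letters TATAAA, found in 13.6%. The GC content of the 250 bases before the start was 54.4% for Timp1, 64.4% for Bgn, 65.6% for Timp3 and 68% for Timp2, against a median of 52.4% over all promoters. These runs held 6 CpG dinucleotides in Timp1, 7 in Bgn, 18 in Timp3 and 21 in Timp2. A match of letters describes the sequence and does not show binding.

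In the livers, 6 of the 9 measured genes were higher in Cnot3KO than in Control and none was lower (limma, adjusted p under 0.05 after Benjamini-Hochberg over all probe sets kept). The genes that rose were Timp1, Lum, Loxl1, Bgn, Dcn and Lox, with folds from 1.85 to 6.22. The Control values of Timp1, Loxl1 and Lox lay below the medians of their arrays, though above the 20th percentiles, so their folds are taken from low levels. Mmp2, Timp2 and Timp3 did not pass the test. Over all 16758 genes tested, 12.2% were called higher and 4.64% lower. The median log2 difference of the 9 genes was 1.15, against 0.00 over all genes. By probe set, 7 of 24 were called higher and none lower, where 8.48% of all 38405 probe sets were called higher and 4.78% lower. Without the adjustment, limma gave p under 0.05 for 13 of the 24 in the higher direction and for 1 in the lower, and the methods' unpaired test gave this for 7 and 1. Shares over all probe sets without the adjustment are not given, here or for the lists below. Such counts therefore do not show whether the set is unusual. The genes called higher were 2 without Control replicate 1, and 3 without Control replicate 2 or Cnot3KO replicate 1. In whole liver RNA, a change in the number of cells that make a transcript and a change in RNA per cell cannot be told apart.

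**Figure D1:**
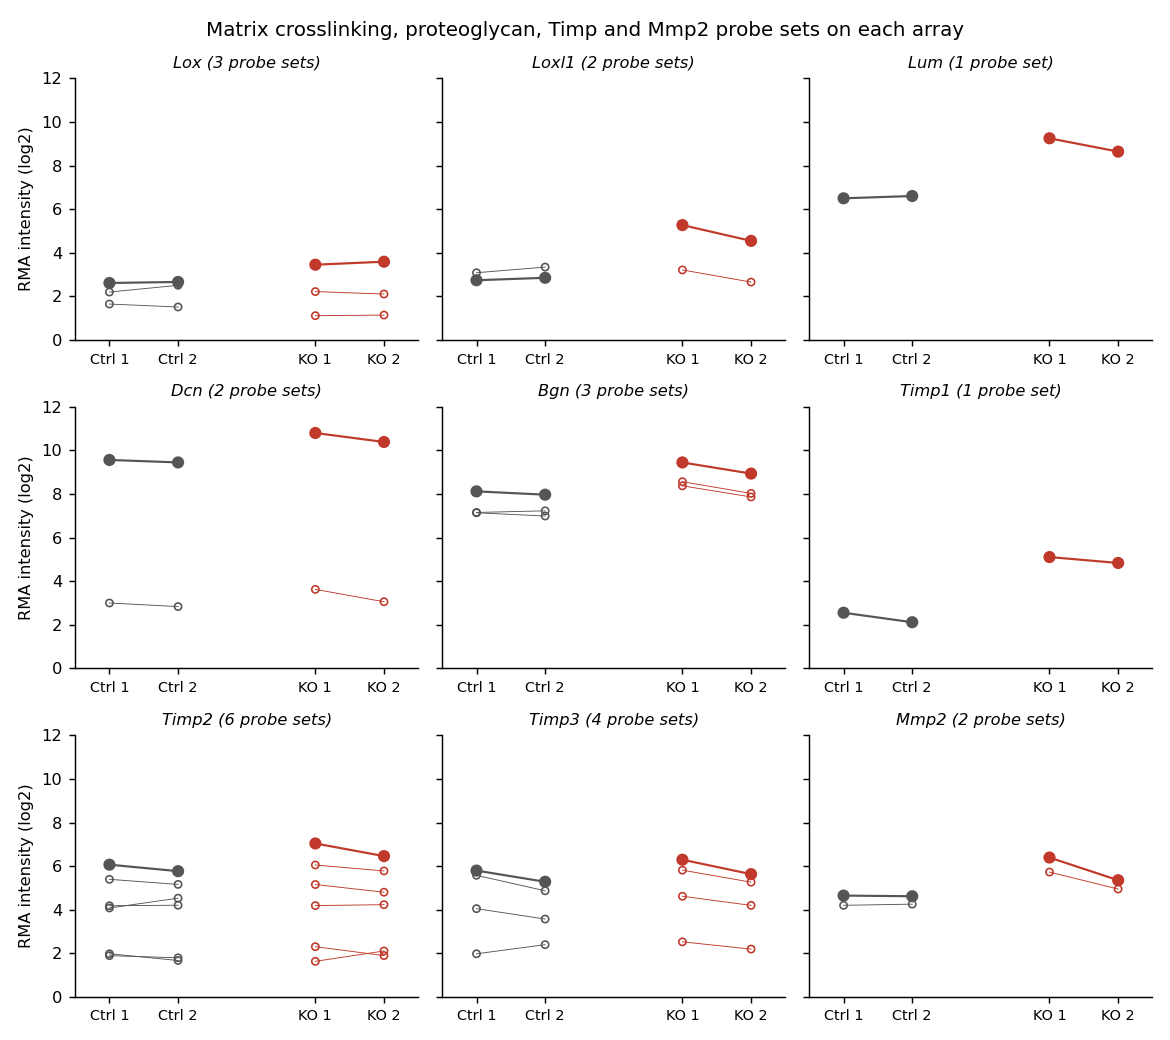
Log2 RMA intensity of the 24 probe sets on each of the 4 arrays, in 1 panel per gene, with Control (Ctrl) in grey and Cnot3KO (KO) in red. Large filled points joined by a thick line are the probe set that represents the gene and small open points are its other probe sets. Both Cnot3KO points lie above both Control points for the representing probe set of 8 genes, and Timp3 is the gene where they overlap.

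Both lysyl oxidases among the members with a value were called higher, each on 1 of its probe sets. Loxl3 and Loxl4, of the same family and listed with the collagen modification genes below, were not called. They differed by 0.30 and -0.93 on the log2 scale (limma adjusted p = 0.325 and 0.500). Loxl1, which is needed for elastic fibre upkeep, was 2.74 and 2.85 in the Control livers against 5.27 and 4.54 in the Cnot3KO livers (log2). Both Cnot3KO livers lay well above both Control livers, and the difference was 2.11 ± 0.27 (SE, n = 2 per group; limma adjusted p = 0.0123), a fold of 4.33. Its other probe set read 3.08 and 3.34 against 3.21 and 2.65, with overlapping groups and a difference of -0.28 ± 0.24 (limma adjusted p = 0.476). The Control mean of this other probe set was the higher, 3.21 against 2.79, so the Cnot3KO values decided which probe set represents Loxl1. The 2 probe sets of Loxl1 thus differed in sign, and the mean over both was 0.92 higher in Cnot3KO (limma adjusted p = 0.0611). Without Control replicate 1 the call of Loxl1 was lost as well, at 2.06 (limma adjusted p = 0.0650).

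Lox, the enzyme after which the family is named, was 2.61 and 2.66 in the Control livers against 3.45 and 3.59 in the Cnot3KO livers (log2) for the probe set that represents it. The groups did not overlap, with a difference of 0.88 ± 0.16 (SE, n = 2 per group; limma adjusted p = 0.0273). The other probe sets of Lox went the other way without passing the test. One read 2.20 and 2.50 against 2.22 and 2.10, a difference of -0.19 ± 0.19. The second read 1.64 and 1.51 against 1.11 and 1.14, a difference of -0.45 ± 0.16 (limma adjusted p = 0.130), and lay at or under the 20th percentile of the array on 3 of the 4 arrays. The mean over the 3 probe sets differed by 0.08 (limma adjusted p = 0.726), so the rise of Lox rests on 1 probe set. Its call was also lost without any single array, where the difference was 0.82 to 0.95.

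All 3 small proteoglycans rose. Lum was 6.50 and 6.60 in the Control livers against 9.25 and 8.64 in the Cnot3KO livers (log2). Its single probe set differed by 2.40 ± 0.25 (SE, n = 2 per group; limma adjusted p = 0.00777), a fold of 5.26, which was several times the spread of either pair of livers. Dcn was 9.57 and 9.45 in the Control livers against 10.80 and 10.39 in the Cnot3KO livers (log2). The groups were apart by 1.09 ± 0.20 (SE, n = 2 per group; limma adjusted p = 0.0286), a fold of 2.13. The second probe set of Dcn read 2.999 and 2.84 against 3.62 and 3.06, also without overlap, and its difference of 0.42 ± 0.24 did not pass the test. The mean of both was 0.76 higher (limma adjusted p = 0.0659).

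Bgn had 3 probe sets, all with both Cnot3KO arrays above both Control arrays. The probe set that represents it read 8.12 and 7.97 in Control against 9.45 and 8.94 in Cnot3KO (log2), a difference of 1.15 ± 0.23 (SE, n = 2 per group; limma adjusted p = 0.0323) and a fold of 2.21. The second, at 7.14 and 6.99 against 8.57 and 8.03, differed by 1.23 ± 0.23 (limma adjusted p = 0.0286). The last read 7.16 and 7.23 against 8.38 and 7.87, where 0.93 ± 0.22 missed the threshold (limma adjusted p = 0.0523). The calls of both Dcn and Bgn were lost without Control replicate 1, Control replicate 2 or Cnot3KO replicate 1, with differences of 0.88 to 1.14 for Dcn and 0.89 to 1.22 for Bgn.

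In the reference annotation Dcn and Lum lie side by side, followed by Kera and Epyc, which encode proteoglycans of the same family. The neighbours were read after their values were seen. Kera was 2.04 and 1.49 in Control against 1.52 and 1.67 in Cnot3KO (log2), a difference of -0.17 ± 0.23 with overlapping groups, and Epyc was not measured here. Of 31 measured neighbours of all members, other than members, 5 were called higher, where 12.2% of all genes were. These were Srfbp1 beside Lox (1.30 ± 0.21), Pml near Loxl1 (1.49 ± 0.24), R3hcc1 beside Loxl2 (0.83 ± 0.19), Lgals3bp beside Timp2 (2.27 ± 0.28) and Lpcat2 beside Mmp2 (1.01 ± 0.20).

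Among the inhibitors, Timp1 rose, and Timp2 and Timp3 did not pass the test. Timp1 was 2.55 and 2.12 in the Control livers against 5.11 and 4.84 in the Cnot3KO livers (log2). The difference of 2.64 ± 0.22 (SE, n = 2 per group; limma adjusted p = 0.00569), a fold of 6.22, had the lowest adjusted p of the 9 genes. Timp1 lies within the Syn1 gene in the annotation, and Syn1, a gene of nerve synapses, was 3.68 and 3.77 in Control against 3.65 and 3.66 in Cnot3KO, a difference of -0.07 on the log2 scale (limma adjusted p = 0.788).

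Timp2 is covered by 6 probe sets, of which 4 had both Cnot3KO arrays above both Control arrays, and 3 of these differed by 0.64 to 0.83 on the log2 scale. The probe set that represents it read 6.06 and 5.77 in Control against 7.04 and 6.46 in Cnot3KO, a difference of 0.83 ± 0.25 (SE, n = 2 per group; limma adjusted p = 0.0915). The others of these 3 read 4.18 and 4.20 against 5.15 and 4.80 (0.79 ± 0.19, limma adjusted p = 0.0537) and 5.39 and 5.16 against 6.05 and 5.78 (0.64 ± 0.19, limma adjusted p = 0.0886). They came close to the threshold without reaching it. The other of the 4 differed by 0.26 and the remaining probe sets by 0.04 and -0.09. These last 3 probe sets did not pass the test, and read 1.63 to 4.53 over the arrays.

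Timp3, which unlike the other Timps is bound to the matrix, was 5.79 and 5.28 in the Control livers against 6.29 and 5.63 in the Cnot3KO livers (log2). The groups overlapped, and the difference of 0.42 ± 0.30 (SE, n = 2 per group) had a limma adjusted p of 0.382. Its other probe sets differed by 0.60 ± 0.25, 0.32 ± 0.31 and 0.17 ± 0.23, none of which passed the test, though the first did not overlap between groups. Timp3 was the member gene with the largest gap between the Control arrays, 0.51, and it lies within Syn3, which differed by -0.03 (limma adjusted p = 0.935). Whether Timp1 differed more than Timp2 or Timp3 was not tested.

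Mmp2 differed by similar amounts on its 2 probe sets. The one that represents it read 4.65 and 4.62 in Control against 6.39 and 5.35 in Cnot3KO (log2), and the other 4.20 and 4.25 against 5.73 and 4.95. Neither overlapped between groups, and the differences were 1.24 ± 0.35 (SE, n = 2 per group; limma adjusted p = 0.0794) and 1.11 ± 0.28 (limma adjusted p = 0.0619). The Cnot3KO livers were 1.04 apart on the first probe set, the widest gap of any member gene. Without Cnot3KO replicate 2, the lower of them, the difference was 1.76 and was called (limma adjusted p = 0.0198).

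**Figure D2:**
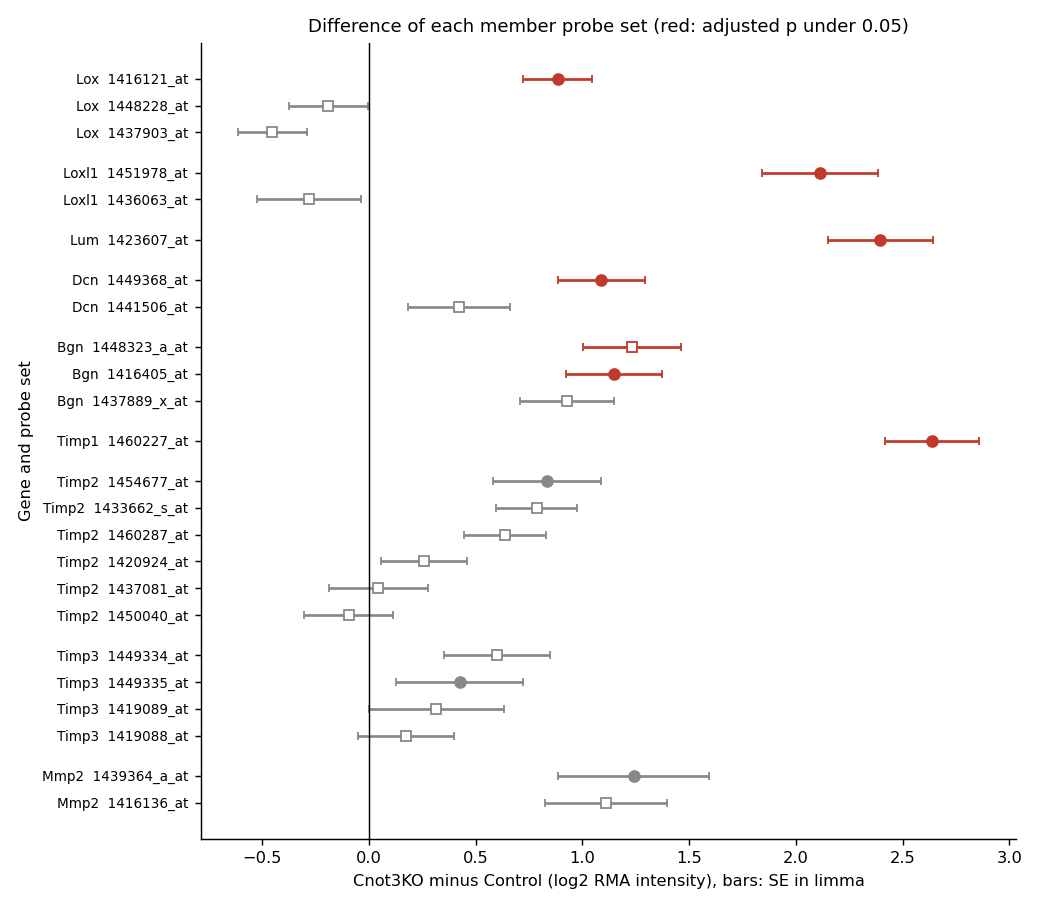
Difference of each of the 24 probe sets, Cnot3KO minus Control on the log2 scale, with bars giving the SE in limma. Filled circles are the probe set that represents a gene, open squares are its others, and red marks the 7 with an adjusted p under 0.05. Differences ran from -0.45 to 2.64, and Lox, Loxl1 and Timp2 each had probe sets on both sides of 0.

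Over all probe sets of these genes, both Cnot3KO arrays lay above both Control arrays for 16 of 24, where 26.9% of all probe sets did. By gene the count was 8 of 9, where 34.8% of all genes did. Of the other probe sets 7 overlapped between groups, and 1, of Lox, lay lower in both Cnot3KO livers.

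The Cnot3KO livers also differed from each other across these genes. Replicate 1 was above replicate 2 for 20 of 24 probe sets, with a median gap of 0.46 on the log2 scale, where 50.4% of all probe sets were higher in replicate 1 and the median gap was 0.00. By gene this held for 8 of 9, with Lox at -0.14 and the others from 0.27 for Timp1 to 1.04 for Mmp2. In Control, replicate 1 was above replicate 2 for 14 of the 24, with a median gap of 0.11. The median size of the gap between the Cnot3KO livers, whatever its sign, was 0.49 for these probe sets and 0.18 over all, while between the Control livers it was 0.16 and 0.24. The probe sets share their livers, so these counts describe 2 animals and carry no test.

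Gaps in the same direction were seen in some of the other lists and not in all. The fibrillar and network collagens were higher in Cnot3KO replicate 1 for 13 of 17 genes with a median gap of 0.24, but the gap between the Control livers, 0.29, was no smaller. Elastic fibre genes and glycoproteins were higher there for 25 of 31 (0.23, and 0.20 in Control) and Tgf-beta genes for 17 of 21 (0.31, and 0.09 in Control). Markers of activated stellate cells and myofibroblasts were higher for 11 of 11 (0.34, and -0.11 in Control) and cholangiocyte markers for 8 of 8 (0.53, and -0.17 in Control). For macrophage markers it was 6 of 14, and for hepatocyte markers 5 of 11. Collagen modification genes were higher there for 11 of 23, genes of pathways that induce Timp1 for 6 of 19, and portal fibroblast and mesothelium markers for 6 of 12. Other proteoglycans were higher for 16 of 27, other metalloproteinases and inhibitors for 15 of 25, and glycan synthesis genes for 14 of 24. For stellate cell markers it was 10 of 15 (0.09, and 0.45 in Control). The part that cell composition plays in the gap between the Cnot3KO livers was not tested.

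**Figure D3:**
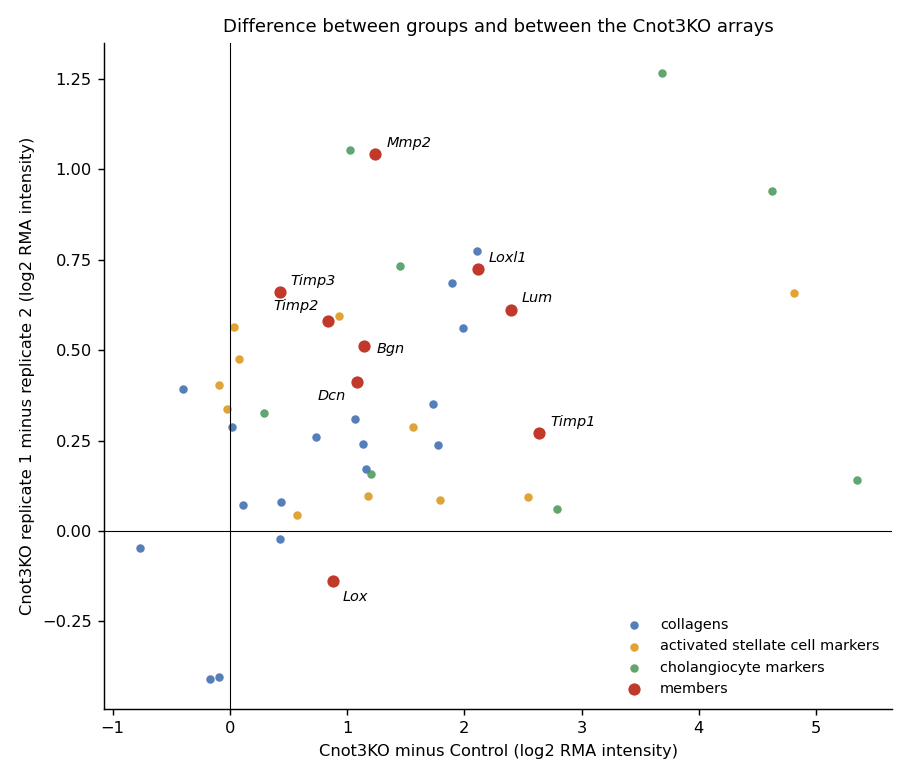
Each point is a gene, with its difference between groups (Cnot3KO minus Control, log2) on the horizontal axis and the difference between the 2 Cnot3KO arrays (replicate 1 minus replicate 2, log2) on the vertical axis. The 9 member genes are large red points, and collagens, activated stellate cell markers and cholangiocyte markers are small points. Lox is the member below 0 on the vertical axis, and Mmp2 is the highest at 1.04.

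Genes that work beside these 10 were taken from 8 lists holding 187 measured genes, of which 39 rose and 8 fell. With an array left out these counts were 15 to 29 and 2 to 3, with 15 higher without Control replicate 1. The share called higher, 12.2% over all genes, was 41.2% for collagens, 30.4% for collagen modification, 28% for other metalloproteinases and inhibitors and 25.8% for elastic fibre genes and glycoproteins. It was near or below that of all genes for Tgf-beta genes (14.3%), glycan synthesis (12.5%), other proteoglycans (11.1%) and genes of pathways that induce Timp1 (5.26%). Of 23 genes for collagen modification and crosslinking, 7 rose and 1 fell, with a median log2 difference of 0.30. The genes that rose included Plod2, a lysyl hydroxylase that prepares collagen for crosslinks (1.43 ± 0.33), Crtap and P3h1 of the prolyl 3-hydroxylation complex (1.40 ± 0.16 and 1.25 ± 0.16), and Tgm2, a transglutaminase that crosslinks proteins by another bond (1.39 ± 0.23). The gene that fell was Bmp1, whose product trims procollagens and activates Lox (-1.03). Of 17 collagens 7 rose and 1 fell, with a median of 0.73. Here Col6a3 (2.11 ± 0.31) and Col5a2 (1.99 ± 0.25) had the largest differences, followed by the type I chains Col1a1 (1.90 ± 0.31) and Col1a2 (1.78 ± 0.20), and Col8a1 fell (-0.77).

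Proteoglycans other than Lum, Dcn and Bgn were divided. Of 27 measured, 3 rose and 2 fell, and the median of -0.08 was near that of all genes. The list also holds Bcam, which is no proteoglycan and was not called (0.04). Gpc3, a fetal liver glypican, rose (1.94 ± 0.45), as did Srgn, a proteoglycan of granules in blood cells (0.98 ± 0.20), and Vcan (0.95). Vcan read 1.53 and 1.55 in Control against 2.72 and 2.25 in Cnot3KO. Both its Control values lay under the 20th percentile of their arrays, so Vcan passed the filter through the Cnot3KO arrays. The cell-surface syndecan Sdc4 fell, from 10.35 and 10.36 in Control to 8.93 and 8.94 in Cnot3KO (-1.42 ± 0.16), and so did Omd (-0.97 ± 0.16). Of 24 enzymes that build their sugar chains, 3 rose and none fell, where limma gave an unadjusted p under 0.05 for 2 that were lower and none was by the methods' test. Chst14, which sulfates dermatan sulfate, the chain that decorin and biglycan carry, differed by 1.58 ± 0.21. Hs2st1 (1.13 ± 0.16) and Ugdh (0.72 ± 0.16) were the others. The mean of all probe sets of Hs2st1 differed by -0.04.

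Of 25 other metalloproteinases and inhibitors, 7 rose and 1 fell, with a median of 0.32. The macrophage elastase Mmp12 read 1.83 and 2.06 in Control against 6.67 and 5.64 in Cnot3KO (4.22 ± 0.36), and the collagenase Mmp13 read 1.11 and 1.63 against 4.71 and 5.74 (3.85 ± 0.38). Both Control values of Mmp13 lay under the 20th percentile of their arrays, so it passed the filter through the Cnot3KO arrays and its difference is set by a level at the low end of the scale. The inhibitor Timp4 rose as well, from 2.61 and 3.08 to 4.65 and 4.80 (1.88 ± 0.22, limma adjusted p = 0.00970). Of the Timp genes on the array, Timp1 and Timp4 were thus called higher, and Timp2 and Timp3 were not called. Mmp14, the membrane protease that cuts the Mmp2 precursor, was 7.01 and 7.03 in Control against 8.68 and 8.24 in Cnot3KO (1.44 ± 0.21), and the aggrecanase Adamts1 differed by 1.52 ± 0.22.

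Elastic fibre genes and matrix glycoproteins counted 8 higher and 1 lower of 31, with a median of 0.42. Sparcl1 (2.33 ± 0.18), Dpt, which binds decorin (2.03 ± 0.32), the basement membrane gene Nid1 (2.03 ± 0.23) and Matn2 (1.75 ± 0.16) had the largest differences. Of 21 Tgf-beta pathway genes and targets, 3 rose and none fell, with a median of 0.63. They were Bambi, a decoy receptor (1.97 ± 0.20), the receptor Tgfbr2 (1.62 ± 0.19) and Smad2 (1.34 ± 0.21). The difference of Smad2 was -0.03 when probe sets with the suffixes _x_at, _s_at and _a_at were left out. At an unadjusted p under 0.05, 7 of the 21 were higher in limma and 5 in the methods' test, and none was lower in either. Among 19 genes of pathways known to induce Timp1, not all of them inducers, 1 rose and 2 fell, with a median of 0.27. Osmr, the oncostatin M receptor, was 4.24 and 4.36 in Control against 6.65 and 5.92 in Cnot3KO (1.99 ± 0.27, limma adjusted p = 0.0142). Of the AP-1 genes, Fos was 3.70 and 4.65 in Control against 5.20 and 6.80 in Cnot3KO, and Jun was 4.98 and 5.66 against 6.27 and 7.19. Neither overlapped between groups, and the differences of 1.82 ± 0.59 (limma adjusted p = 0.106) and 1.41 ± 0.38 (limma adjusted p = 0.0716) did not pass the test, nor did Fosl2 (0.97 ± 0.23, limma adjusted p = 0.0510). The other AP-1 genes of the list were not called either. They were Jund (0.62), Fosl1 (0.27), Junb (0.20) and Fosb (-0.0047), with overlapping groups for Junb and Fosb. Osm, the oncostatin M gene, differed by -0.45 (limma adjusted p = 0.130). The receptor genes Lifr (-3.28 ± 0.22) and Il6ra (-1.81 ± 0.41, limma adjusted p = 0.0472) fell.

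**Figure D4:**
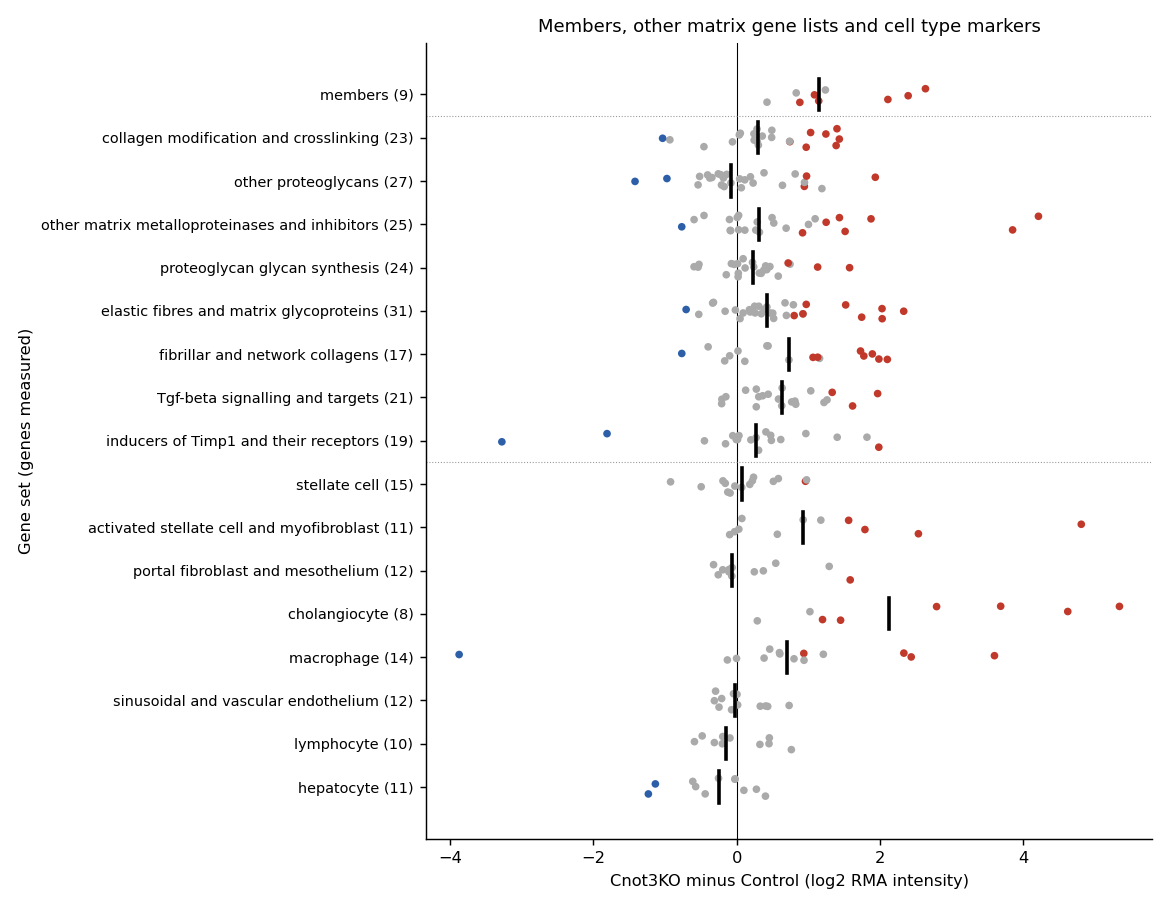
Difference between groups (Cnot3KO minus Control, log2) of the 9 measured member genes in the top line, of 8 lists of other matrix and pathway genes in the middle and of 8 lists of cell type markers at the bottom. Each point is a gene, red if called higher, blue if called lower and grey otherwise, and the black bar is the median, which was 1.15 for the members, 0.73 for the collagens and 2.12 for the cholangiocyte markers.

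Markers of the cells known to make these proteins, and of other liver cells, were read on the same arrays. Of the 93 measured, 16 were called higher and 3 lower, with fewer called without Control replicate 1. Over all genes the shares were 12.2% higher and 4.64% lower. By list, the share called higher was 6.67% for stellate cells and 8.33% for portal fibroblasts and mesothelium. It was 36.4% for activated stellate cells and myofibroblasts, 75% for cholangiocytes and 28.6% for macrophages. None was called higher in the other lists, and 18.2% of hepatocyte and 7.14% of macrophage markers were called lower. Of 15 stellate cell markers 1 was called higher, Pdgfrb (0.96 ± 0.21, limma adjusted p = 0.0436), and none was lower, with a median of 0.07. At an unadjusted p under 0.05, 2 of the 15 were higher in limma and 0 in the methods' test, and none was lower in either. Lrat, which defines vitamin A storing stellate cells, was 6.52 and 6.18 in Control against 6.04 and 6.27 in Cnot3KO (log2), and Des was 4.59 and 4.78 against 4.68 and 4.84, with overlapping groups in both. The mean level over this list was 5.31 to 5.71 in Control and 5.54 to 5.71 in Cnot3KO. Of 11 markers of activated stellate cells and myofibroblasts 4 were higher, with a median of 0.93, and the mean level was 5.01 to 5.11 in Control and 6.11 to 6.44 in Cnot3KO. The actin gene Acta2, their defining marker, was 4.02 and 4.45 against 5.95 and 5.66 (1.57 ± 0.22, limma adjusted p = 0.0150). S100a6 (4.81 ± 0.34), Lgals1 (2.54 ± 0.20) and Vim (1.79 ± 0.17), the others that rose, are also expressed by macrophages and biliary cells. Tagln (1.18, limma adjusted p = 0.0585), Pdgfra (0.93) and Myl9 (0.57) did not overlap between groups and did not pass the test. Cnn1 (0.07), Tpm2 (0.03), Cald1 (-0.03) and Actg2 (-0.10) overlapped between groups.

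Of 12 markers of portal fibroblasts and mesothelium 1 rose, Cd34 (1.59 ± 0.18), with a median of -0.06 and mean levels of 2.64 to 2.82 in Control and 2.96 to 2.99 in Cnot3KO. Thy1 was 3.67 and 3.06 against 3.68 and 3.79, and Gli1 was 2.03 and 2.02 against 2.13 and 1.79. Cholangiocyte markers were higher for 6 of 8, with Prom1 (5.35), Tspan8 (4.63) and Epcam (3.69) in front and a mean level of 3.33 to 3.37 in Control and 5.61 to 6.19 in Cnot3KO. Of 14 macrophage markers 4 were higher, among them Gpnmb (3.60), Ms4a7 (2.44) and Cd68 (2.34), and Cd163 was lower (-3.87). Other Kupffer cell genes of the list did not pass the test, with Clec4f at 0.60, Vsig4 at 0.60, Marco at 1.21 and Timd4 at -0.13. The list had mean levels of 5.51 to 5.71 in Control and 6.34 to 6.35 in Cnot3KO. None of 12 endothelial and none of 10 lymphocyte markers was called in limma. At an unadjusted p under 0.05 the former had none in either direction in limma or the methods' test, and the latter had 1 each way in limma. The hepatocyte list, the check of the labelled tissue, had mean levels of 12.38 to 12.42 in Control and 12.08 on both Cnot3KO arrays, with Cyp2e1 (-1.23 ± 0.19) and Apob (-1.13 ± 0.21) lower. Alb differed by -0.02, but it read 13.73 to 13.84 where the highest values of the arrays were 13.80 to 14.05, so a difference there could go unseen. How far the differences of Lum, Timp1 and the other members go with these cell types was not tested.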

How the data were processed

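The values were deposited as a table of probe set intensities on the linear scale, from 1.27 to 16933, which the authors made from Affymetrix mouse 3' expression arrays with RMA (version not stated). They were turned to log2 with no added constant. Probe sets above the 20th percentile of their array on at least 1 of the 4 arrays were kept (85.3%). Of all probe sets, 34945 named 1 gene, 932 named several and 9160 named no gene. Symbols were looked up by Entrez identifier in RefSeq genes of GRCm38.p6 (34741 found, 0 changed). A gene was represented by its kept probe set with the highest mean over all 4 arrays that names it alone. This mean includes the Cnot3KO arrays, so the choice can favour a probe set that is high there. Apart from that choice, no probe set was compared in level with another.

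Groups were compared by lmFit and eBayes in limma 3.58.1 (R 4.3.3), 2-sided, with Benjamini-Hochberg over all kept probe sets and a threshold of 0.05. The prior gave 3.40 of 5.40 degrees of freedom. The SE of a difference had a median of 0.192, and the number of arrays limits the precision. The labels number the mice but name no litter, so the limma p-values rest on the spread between these livers, moderated by that prior over all kept probe sets. No arrays held identical values. The fit was tested on simulated data. Python 3.11.15, pandas 2.3.3, numpy 2.4.6 and matplotlib 3.10.9 were used for the rest.

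The members and lists were chosen with earlier results of these data known. Named genes were all members, Cnot3, up to 4 called genes of each list with the largest differences, and of each marker list up to 3 such genes and its first 2, some of which are left out for space. Bmp1, Vcan, Mmp14, Col8a1, Fos, Jun, Fosl2, Clec4f, Vsig4, Marco, Timd4 and the neighbouring genes were named after their values were seen. So were Pdgfra, Myl9, Cnn1, Tpm2, Cald1, Actg2, Loxl3, Loxl4, Jund, Fosl1, Junb, Fosb, Osm and Bcam. Alternatives were other filters, normalizations, priors, thresholds, the methods' t-test, other summaries of probe sets, the replicate number as a block, and each array left out. Protein sequences were not used here.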

Additional observations from a re-analysis of the deposited data

How the results depend on the processing

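Of the 6 member genes called higher, Timp1 and Lum were called under every alternative except the methods' t-test after Benjamini-Hochberg, which called 0 genes and 0 probe sets of this set, and no member gene was called lower in any. An adjusted p under 0.01 left 2 genes and 2 probe sets, under 0.1 there were 8 genes and 13 probe sets, and averaging the probe sets of each gene gave 3 genes. The shares over all genes under these alternatives are not given. With each array left out in turn, 2 to 6 member genes and 2 to 8 probe sets were called higher. The fewest came without Control replicate 1 (2 and 2), and without Control replicate 2 or Cnot3KO replicate 1 there were 3 and 3. The methods' t-test at an unadjusted p under 0.05 called 1 probe set lower. In the pathway lists 39 genes were higher and 8 lower, against 15 to 29 and 2 to 3 with an array left out, and in the marker lists 16 and 3, against 10 to 16 and 1 to 3.

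Same-numbered arrays deviated together with r = 0.232 over 2 pairs, which does not show that the numbers pair the mice. With the replicate block the same 6 member genes were called, 5 list genes instead of 8 were called lower, and Cnot3 differed by -0.79 (limma adjusted p = 0.0517). The Cnot3 difference of -0.79 also missed the threshold with a prior that follows intensity, with the methods' t-test after Benjamini-Hochberg and at an adjusted p under 0.01, and with an array left out it was -0.87 to -0.71.

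Signs turned for 6 genes that are no members, none of which was called there. Hs2st1 was at -0.0401 with its probe sets averaged and Smad2 at -0.0292 without suffixed probe sets. With quantile normalization again Des was at -0.12, Gli1 at 0.0495 and Ttr at 0.10. Centring on medians put Alb at 0.0171 and Ttr at 0.0145. With an array left out, Des ran from -0.0279 to 0.17, Gli1 from -0.23 to 0.11, Alb from -0.0793 to 0.0366 and Ttr from -0.0675 to 0.0197. The cause was not tested. All member genes kept the sign of their difference under each alternative run.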
